A study of Mus musculus with 24 samples.

Results

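Blood clotting and complement are cascades of plasma proteins in which each enzyme cuts and switches on the next. Hepatocytes make most of these proteins and secrete them, including the vitamin K-dependent factors F2, F7, F9, F10, Proc, Pros1 and Proz, the chains of fibrinogen, and the complement components from C2 to C9. C1q, which recognises antibody-coated targets and starts the classical complement pathway, is made mainly by macrophages, so a liver holds both kinds of transcript in different cells. The data described here are 38 coagulation and complement genes, 35 of them hepatocyte-made and 3 coding for the chains of C1q, out of 15513 genes tested. They were found as gene probes that carried the member's name in the scanner files, which gave 51 probes, and all 38 genes were well above background on all 4 arrays of every group. Each gene is represented by its brightest probe.

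The samples were livers of male mice from 3 inbred strains, WSB/EiJ, C3H/HeJ and A/J, and each of 24 single-colour Agilent arrays took RNA of 1 sample, 4 for each strain and diet. Mice of the deficient groups ate, from the age of 8 weeks and for 12 weeks, an iron-supplemented amino acid-defined diet without choline or folic acid and with 0.17% methionine. The control diet had the same base, with methionine at 0.4% and added folic acid (2 mg/kg) and choline bitartrate (0.3%). Whether the arrays of a group came from different animals is not given in the labels, so the spread behind the p-values may be technical. All groups were 20 weeks old at the end, and the study's question was why strains differ in how severely this diet injures the liver. Signals well above background were found for 44.4% to 56% of the gene spots of an array, and 0 spots were saturated. Of 24 hepatocyte markers 23 were measured and passed the filter. Values are log2 of the processed signal minus the array's 75th percentile, called log2 level here, and a difference is the log2 of the deficient over the control level, given ± limma's standard error (n = 4 arrays per group). A gene was called at a Benjamini-Hochberg adjusted p under 0.05 over all genes tested.

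On deficient arrays of WSB/EiJ and C3H/HeJ most hepatocyte-made factors were lower and C1q was higher with the 75th percentile scaling, while other scalings turned some of the factors the other way. In WSB/EiJ all 35 hepatocyte-made factors fell and all 3 C1q genes rose, where 50.1% of all genes tested fell and 23.6% rose. In C3H/HeJ 32 of the 35 fell and the 3 C1q genes rose, against 30.8% and 17.3% of all genes. In A/J 7 of the 35 fell and 0 of the 38 rose, against 4.71% and 5.74%. The median log2 fold change of the 35 was -1.15 in WSB/EiJ, -0.65 in C3H/HeJ and -0.35 in A/J, where the median of all genes was -0.34, -0.16 and -0.07. The groups of arrays did not overlap for 38 of the 38 genes in WSB/EiJ, 24 in C3H/HeJ and 14 in A/J, where 69.9%, 35% and 17.5% of all genes did not overlap. In a whole-liver sample, fewer cells of a type and less RNA per cell cannot be told apart. The share of all genes called in either direction was 73.8% in WSB/EiJ, 48.1% in C3H/HeJ and 10.5% in A/J.

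**Figure D1:**
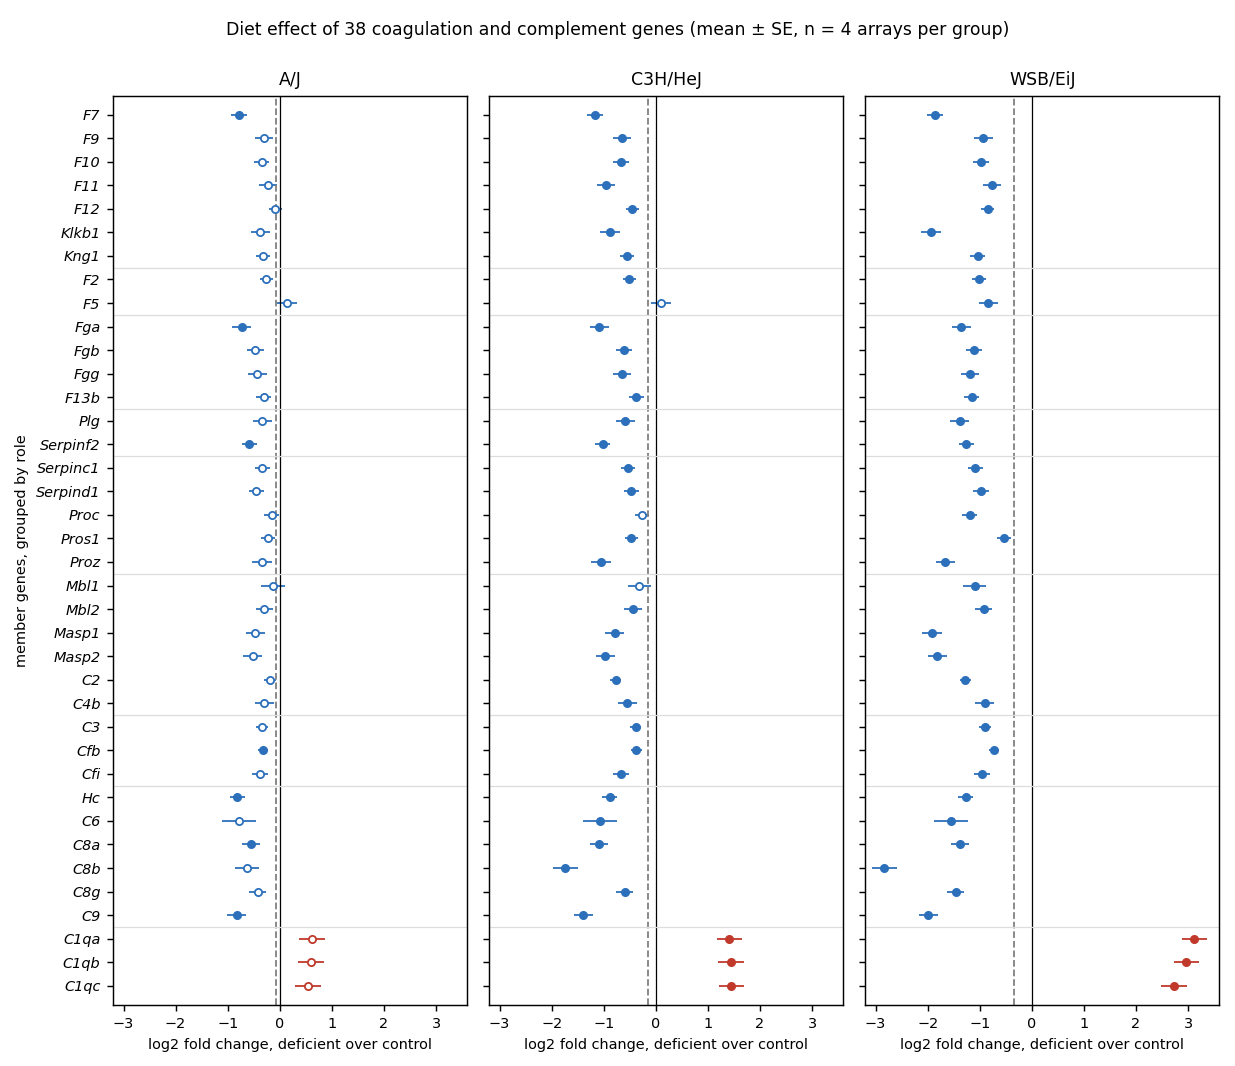
Log2 of deficient over control level, with limma's standard error as bars, for each of the 38 genes (rows, grouped by role) in A/J, C3H/HeJ and WSB/EiJ. Filled points passed the adjusted p of 0.05, blue marks hepatocyte-made factors, red marks C1q, and the dashed line is the median of all genes. In WSB/EiJ all 35 blue points lie left of 0 and the 3 red ones right of it with this scaling, and 11 of the blue ones keep that call under all 5 scalings.

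The direction of many hepatocyte-made factors depended on how arrays were set to a common scale. The unscaled 75th percentile of the signals lay between 334 and 386 on deficient arrays of WSB/EiJ, against 165 to 185 on control arrays, and between 238 and 360 against 158 to 226 in C3H/HeJ and 205 and 299 against 203 to 235 in A/J. With each array scaled on its E1A spike-in transcripts, which are added to the RNA in fixed amount, 11 of the 35 hepatocyte-made factors fell and 2 rose in WSB/EiJ, 11 fell and 1 rose in C3H/HeJ, and 3 fell and 1 rose in A/J. Under it 7.67% of all genes fell and 66.8% rose in WSB/EiJ, 4.54% and 39.3% in C3H/HeJ and 1.24% and 22.3% in A/J. That scaling moved the median of all genes to 0.67, 0.33 and 0.29 in the same order of strains, and the medians of the 35 were -0.15, -0.16 and 0.01. With quantile normalization 18 fell and 2 rose in WSB/EiJ, 18 fell and 1 rose in C3H/HeJ, and 6 fell and 0 rose in A/J, where 32.8% of all genes fell and 32.3% rose in WSB/EiJ, 19.9% and 21.8% in C3H/HeJ and 4.49% and 7.39% in A/J. With the 75th percentile, 35 of the 35 in WSB/EiJ, 34 in C3H/HeJ and 34 in A/J lay below the median of all genes, a count that no scaling by 1 constant per array can change, and with quantile normalization 27, 28 and 29 did. The 3 C1q genes rose in WSB/EiJ and C3H/HeJ under all 5 scalings tried.

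Under all 5 scalings, 11 hepatocyte-made factors fell in WSB/EiJ, namely C8b, C9, Klkb1, Masp1, F7, Masp2, Proz, C8g, Plg, C8a and Serpinf2. In C3H/HeJ 11 did so, namely C8b, C9, F7, C8a, Fga, Proz, Serpinf2, Masp2, F11, Hc and Klkb1, and 8 of these are shared with WSB/EiJ. In A/J there were 3, C9, Hc and F7, and F7 and C9 fell under all 5 scalings in all 3 strains. The share of all genes that fell under all 5 was not counted. It can be at most 7.67% in WSB/EiJ, 4.54% in C3H/HeJ and 1.24% in A/J, the shares that fell with spike-in scaling. The calls of the other 24 factors that fell in WSB/EiJ, 21 in C3H/HeJ and 4 in A/J ended or turned under at least 1 of the scalings. Some factors were called in both directions in WSB/EiJ, where Cfb, factor B of the alternative pathway, was called lower with the 75th percentile and higher with spike-in scaling (0.28), quantile normalization (0.39) and normexp correction with quantile normalization (0.35).

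**Figure D2:**
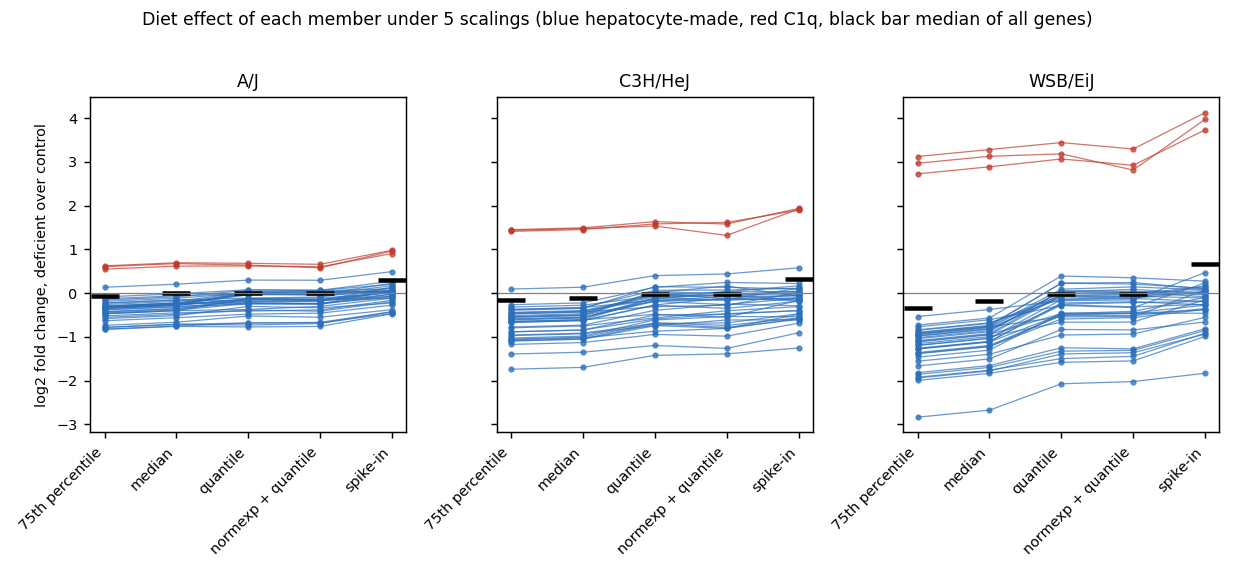
Log2 fold change, deficient over control, of each of the 38 genes (lines) under 5 ways of setting arrays to a common scale, by strain. Blue lines are hepatocyte-made factors, red lines C1q, and the black bar is the median of all genes under that scaling, which in WSB/EiJ runs between -0.34 and 0.67. The 3 red lines stay above 0 in each panel, and blue lines cross 0 in each panel.

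The effect of the diet also followed brightness across all genes. In WSB/EiJ the median log2 fold change of genes outside the 38 was -0.01 at mean log2 levels under 0 (6651 genes) and -0.96 at levels over 8 (212 genes), where 94.3% of them fell. The 13 hepatocyte-made factors in that brightest class had a median of -1.04, close to that of the other bright genes. At levels of 4 to 6 the 8 hepatocyte-made factors had a median of -1.49, against -0.61 for 1651 other genes, and at levels of 2 to 4 the 4 factors there had -1.24, against -0.42 for 2950 others. In C3H/HeJ the 13 factors over 8 had -0.55, against -0.43 for the other genes, and the 8 at 4 to 6 had -0.84, against -0.27.

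The members whose diet effect differed most between WSB/EiJ and A/J were C8b and Klkb1 in the lower direction and C1qa, C1qb and C1qc in the higher one. RefSeq promoters on build GRCm38.p6 matched 29 of the 38 genes, and 9 (Kng1, Plg, Proc, Masp1, C2, C4b, Cfb, Cfi and C1qa) had no entry. The 250 bases before the gene start are shown for Klkb1 (chr8:45294836-45295085, - strand), C1qb (chr4:136886201-136886450, - strand) and C1qc (chr4:136892915-136893164, - strand), 5′ to 3′ along the gene. Capitals mark a match, on either strand, to the HNF4 sites CAAAGTCCA and CAAAGGTCA, the C/EBP site TTGCNNAA, the STAT3 site TTCNNNGAA or the PU.1 core GAGGAA.
Klkb1: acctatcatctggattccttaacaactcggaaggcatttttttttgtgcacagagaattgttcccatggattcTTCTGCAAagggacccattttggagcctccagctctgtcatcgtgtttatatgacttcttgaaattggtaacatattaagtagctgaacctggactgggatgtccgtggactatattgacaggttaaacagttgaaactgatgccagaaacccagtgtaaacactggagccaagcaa
C1qb: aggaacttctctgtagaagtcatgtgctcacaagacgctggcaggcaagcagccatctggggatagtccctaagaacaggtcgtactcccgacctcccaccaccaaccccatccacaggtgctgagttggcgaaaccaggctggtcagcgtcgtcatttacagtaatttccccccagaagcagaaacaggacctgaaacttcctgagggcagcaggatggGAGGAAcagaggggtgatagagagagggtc
C1qc: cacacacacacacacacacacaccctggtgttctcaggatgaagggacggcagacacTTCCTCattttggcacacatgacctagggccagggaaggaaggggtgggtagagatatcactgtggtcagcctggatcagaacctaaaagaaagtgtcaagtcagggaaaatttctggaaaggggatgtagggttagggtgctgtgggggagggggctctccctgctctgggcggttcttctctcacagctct
Both C1q promoters held the letters of the PU.1 core, a motif of a macrophage transcription factor, and none of the other letters searched. The match began at position -30 from the gene start in C1qb and at -193 in C1qc, there on the opposite strand. Klkb1 held the C/EBP letters on the opposite strand at -177. Over the 27 hepatocyte-made factors with an entry, 7 held the C/EBP site (25.9%, against 9.56% of all 32851 promoters in the table), 6 the STAT3 site (22.2%, against 7.02%), 1 an HNF4 site (F7, 3.7%, against 0.807%) and 2 the PU.1 core (7.41%, against 23.3%). A member gene counted when any of its entries matched, while the shares of all promoters count each entry, so these shares differ in unit. The C/EBP and STAT3 letters can share bases with each other and with other motifs. These are matches of letters and do not show that a factor binds.

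Among the initiating and contact factors, 7 of 7 fell in WSB/EiJ and C3H/HeJ and 1 of 7 in A/J. These counts stood against 50.1%, 30.8% and 4.71% of all genes in WSB/EiJ, C3H/HeJ and A/J. Spike-in scaling turned F9, F10, F11 and F12 positive in WSB/EiJ and F12 in C3H/HeJ, and quantile normalization turned Kng1 positive in both. F7 (chromosome 8, 13035257 to 13035316 on build NCBI37, mm9), the protease that tissue factor binds to start clotting, had log2 levels of 3.15, 3.35, 3.55 and 3.25 on deficient arrays, against 5.11, 5.06, 5.23 and 5.33 on control arrays in WSB/EiJ. In C3H/HeJ it stood at 3.92, 3.77, 4.28 and 4.600 on deficient arrays, against 5.19, 5.33, 5.33 and 5.40 on control arrays, and in A/J at 4.14, 4.397, 4.05 and 4.57 on deficient arrays, against 5.26, 5.05, 5.16 and 4.82 on control arrays. Deficient and control arrays did not overlap in any strain, and deficient arrays were lower by 3.62-fold in WSB/EiJ (-1.86 ± 0.15, adjusted p = 3.0e-09), 2.25-fold in C3H/HeJ (-1.17 ± 0.15, adjusted p = 8.9e-06) and 1.72-fold in A/J (-0.78 ± 0.15, adjusted p = 0.00276). Klkb1 (chromosome 8, 46355052 to 46355111), plasma prekallikrein of the contact system, stood at 3.22, 3.71, 3.71 and 3.16 on deficient arrays, against 5.36, 5.42, 5.21 and 5.57 on control arrays in WSB/EiJ, a fall of 3.83-fold (-1.94 ± 0.19). Its values were 5.06, 5.03, 5.45 and 5.85 on deficient arrays, against 6.19, 6.51, 6.18 and 6.03 on control arrays in C3H/HeJ (-0.88 ± 0.19) and 5.50, 5.597, 5.37 and 5.79 on deficient arrays, against 6.16, 5.99, 6.14 and 5.48 on control arrays in A/J (-0.38 ± 0.19, adjusted p = 0.2). A/J control 4 lay within the deficient arrays of that strain, as the plot of signals on every array shows. F11, the gene next to Klkb1 at a distance of 28.2 kb between the probes, codes for factor XI, which activates F9. It stood at 3.66, 3.59, 3.75 and 3.45 on deficient arrays, against 4.29, 4.500, 4.39 and 4.34 on control arrays in WSB/EiJ (-0.77 ± 0.18), at 4.57, 4.62, 4.89 and 5.54 on deficient arrays, against 5.84, 5.86, 5.94 and 5.80 on control arrays in C3H/HeJ (-0.96 ± 0.18) and at 4.75, 4.88, 4.38 and 5.06 on deficient arrays, against 5.26, 5.12, 4.997 and 4.59 on control arrays in A/J. Of the neighbours, Klkb1 fell by more than F11 in WSB/EiJ. F12, the contact factor XII that activates F11, stood at 6.50, 6.47, 6.85 and 6.34 on deficient arrays, against 7.26, 7.36, 7.34 and 7.59 on control arrays in WSB/EiJ (-0.85 ± 0.13). It stood at 5.54, 5.44, 5.74 and 5.88 on deficient arrays, against 5.995, 6.39, 5.96 and 6.06 on control arrays in C3H/HeJ and at 5.79, 5.93, 5.79 and 6.04 on deficient arrays, against 6.12, 5.92, 6.06 and 5.79 on control arrays in A/J. The groups did not overlap for F12 in WSB/EiJ and C3H/HeJ. F9, F10 and Kng1, the high molecular weight kininogen, changed in WSB/EiJ by -0.93 ± 0.17, -0.98 ± 0.15 and -1.04 ± 0.14. In C3H/HeJ the values of F9, F10, F12 and Kng1 were -0.65 ± 0.17, -0.67 ± 0.15, -0.45 ± 0.13 and -0.55 ± 0.14.

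The probes of F7 and F10 lie 20.5 kb apart on chromosome 8 and those of F10 and Proz 20 kb, and their changes in WSB/EiJ differed in size, -1.86 ± 0.15, -0.98 ± 0.15 and -1.66 ± 0.19. The second probe of F10 had no C or T among its 60 bases (chromosome 8, 13056223 to 13056290) and had the opposite sign to the first one in WSB/EiJ (0.33 ± 0.19) and C3H/HeJ (0.10 ± 0.19) and the same sign in A/J (-0.30 ± 0.19). It begins with the repeat shown here, 30 bases long.
F10 second probe: agaaagaaagaaagaaagaaagaaagaaag
Other members with several probes kept the sign of the diet effect in each strain, except the dimmest of 3 probes of Masp1 (0.70 ± 0.20 in WSB/EiJ, 0.11 ± 0.20 in C3H/HeJ and 0.61 ± 0.20 in A/J) and the second probe of F5 in C3H/HeJ (-0.085, not called for either probe). The dimmest probe of Masp1 was called higher in WSB/EiJ. Its second probe changed by -0.80 ± 0.17 in WSB/EiJ, -0.57 ± 0.17 in C3H/HeJ and -0.36 ± 0.17 in A/J. The second probe of C3 was called lower in A/J (-0.39 ± 0.10), where the brightest was not called.

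**Figure D3:**
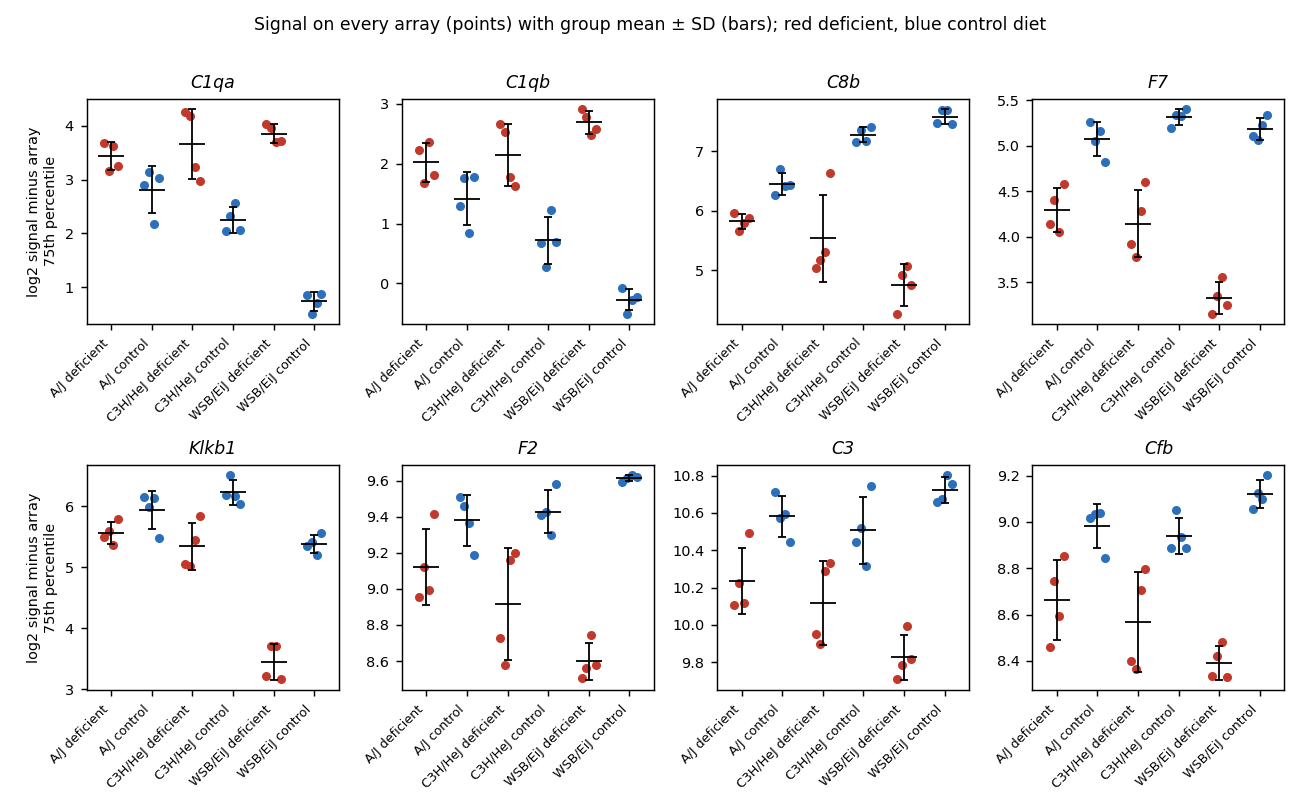
Log2 level (log2 signal minus the array's 75th percentile) of 8 genes on every array, with the group mean and SD as bars. Red points are deficient and blue points control arrays, 4 per group. C1qa and C1qb stand higher and the other 6 lower on all 4 deficient arrays of WSB/EiJ than on its control arrays, on this scale. Quantile normalization turns F2, C3 and Cfb positive in WSB/EiJ.

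Of the pair of prothrombin and factor V, both fell in WSB/EiJ, 1 in C3H/HeJ and 0 in A/J. The shares of all genes that fell were 50.1%, 30.8% and 4.71%. Quantile normalization turned F2 positive in WSB/EiJ and C3H/HeJ, and spike-in scaling turned F5 positive in WSB/EiJ. F2, prothrombin (chromosome 2, 91465510 to 91465569), stood at 8.51, 8.56, 8.75 and 8.58 on deficient arrays, against 9.59, 9.61, 9.63 and 9.62 on control arrays in WSB/EiJ, 2.02-fold lower (-1.02 ± 0.13, adjusted p = 6.3e-07), although quantile normalization gave 0.031 and normexp with quantile normalization 0.086. It stood at 8.73, 8.58, 9.16 and 9.20 on deficient arrays, against 9.41, 9.42, 9.30 and 9.58 on control arrays in C3H/HeJ (-0.51 ± 0.13) and 8.95, 9.12, 8.99 and 9.42 on deficient arrays, against 9.51, 9.46, 9.36 and 9.19 on control arrays in A/J. The 4 control arrays of WSB/EiJ lay closer together than the deficient ones. F5, the factor V that thrombin activates, fell in WSB/EiJ (-0.84 ± 0.19, 0.17 with spike-in scaling) and stood at 0.09 ± 0.19 in C3H/HeJ (adjusted p = 0.699), where it was called higher with quantile normalization (0.401), spike-in scaling (0.58) and normexp with quantile normalization (0.44). C3H/HeJ control 2 had a log2 level of 5.02 for F5, against 5.69 to 5.91 on the other control arrays.

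The 3 chains of fibrinogen are coded side by side on chromosome 3 between 82818825 and 82846393. They and the carrier subunit F13b of the fibrin crosslinker fell in WSB/EiJ and C3H/HeJ, where 50.1% and 30.8% of all genes fell. Fgb, the beta chain, stood at 8.53, 8.60, 8.67 and 8.53 on deficient arrays, against 9.51, 9.60, 9.67 and 10.001 on control arrays in WSB/EiJ, 2.16-fold lower (-1.11 ± 0.16). It stood at 9.59, 9.35, 9.95 and 10.13 on deficient arrays, against 10.25, 10.22, 10.19 and 10.79 on control arrays in C3H/HeJ (-0.61 ± 0.16) and at 9.86, 10.01, 9.87 and 10.33 on deficient arrays, against 10.58, 10.45, 10.42 and 10.50 on control arrays in A/J (adjusted p = 0.0621). The A/J groups did not overlap although the difference was not called. The alpha chain Fga fell in all 3 strains, by -1.36 ± 0.18 in WSB/EiJ, -1.09 ± 0.18 in C3H/HeJ and -0.73 ± 0.18 in A/J, and the gamma chain Fgg by -1.19 ± 0.17 in WSB/EiJ and -0.65 ± 0.17 in C3H/HeJ. The falls of Fgb and Fgg were called under 2 of the 5 scalings in either strain. In WSB/EiJ Fgb had -0.05 with quantile normalization, -0.11 with spike-in scaling and -0.07 with normexp and quantile normalization, and Fgg -0.15, -0.19 and -0.12. A second probe of Fga, tested over all probes, gave -1.25 ± 0.20, -0.77 ± 0.20 and -1.09 ± 0.20 in the same order. F13b changed by -1.15 ± 0.14 in WSB/EiJ and -0.37 ± 0.14 in C3H/HeJ, with 0.11 in C3H/HeJ after spike-in scaling. Of the fibrinolysis pair, Plg, plasminogen, which dissolves fibrin once it is cut to plasmin, changed by -1.38 ± 0.18 in WSB/EiJ and -0.59 ± 0.18 in C3H/HeJ. Serpinf2, the antiplasmin that blocks plasmin, changed by -1.26 ± 0.14 in WSB/EiJ, -1.02 ± 0.14 in C3H/HeJ and -0.58 ± 0.14 in A/J.

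The anticoagulants fell with the procoagulants, 5 of 5 in WSB/EiJ, 4 of 5 in C3H/HeJ and 0 of 5 in A/J. The shares of all genes that fell were 50.1%, 30.8% and 4.71%. Serpinc1, Serpind1 and Pros1 turned positive in WSB/EiJ and C3H/HeJ under another scaling. Proc (chromosome 18, 32282816 to 32282875), protein C, which cuts factors V and VIII once activated, stood at 7.36, 7.40, 7.52 and 7.28 on deficient arrays, against 8.44, 8.59, 8.59 and 8.71 on control arrays in WSB/EiJ, 2.29-fold lower (-1.19 ± 0.14). It stood at 7.96, 7.85, 8.35 and 8.60 on deficient arrays, against 8.60, 8.18, 8.47 and 8.58 on control arrays in C3H/HeJ (-0.26 ± 0.14, adjusted p = 0.125, 0.22 with spike-in scaling) and at 8.28, 8.31, 8.18 and 8.53 on deficient arrays, against 8.66, 8.56, 8.49 and 8.22 on control arrays in A/J. The C3H/HeJ groups overlapped, with deficient 4 level with the highest control array. Serpinc1, antithrombin, changed by -1.09 ± 0.14 in WSB/EiJ (0.019 with normexp and quantile normalization) and -0.54 ± 0.14 in C3H/HeJ. Serpind1, heparin cofactor II, changed by -0.98 ± 0.15 and -0.47 ± 0.15, with 0.025 and 0.015 after spike-in scaling. Proz, protein Z, the cofactor of an inhibitor of F10, changed by -1.66 ± 0.19 and -1.05 ± 0.19. It was called lower in both strains under all 5 scalings, with -0.66 and -0.56 after spike-in scaling. Pros1, protein S, the cofactor of protein C, had the smallest change in WSB/EiJ (-0.53 ± 0.13), and spike-in scaling called it higher (0.47).

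At the entry of the lectin and classical pathways, 6 of 6 hepatocyte-made genes fell in WSB/EiJ, 5 in C3H/HeJ and 0 in A/J. The shares of all genes that fell were 50.1%, 30.8% and 4.71%. C4b in WSB/EiJ and Mbl2 in WSB/EiJ and C3H/HeJ turned positive under other scalings. Masp1 (chromosome 16, 23449609 to 23449668), a protease carried by mannose-binding lectin, stood at 2.17, 2.57, 2.80 and 2.34 on deficient arrays, against 4.24, 4.49, 4.39 and 4.45 on control arrays in WSB/EiJ, 3.78-fold lower (-1.92 ± 0.19). It stood at 3.95, 4.04, 4.57 and 4.99 on deficient arrays, against 5.37, 4.97, 5.20 and 5.18 on control arrays in C3H/HeJ (-0.79 ± 0.19) and at 4.05, 4.46, 3.98 and 4.61 on deficient arrays, against 4.82, 4.67, 4.74 and 4.74 on control arrays in A/J (-0.47 ± 0.19, adjusted p = 0.114). Masp2, the protease that cuts C4 and C2, changed by -1.82 ± 0.18 in WSB/EiJ and -0.97 ± 0.18 in C3H/HeJ. It was called lower in both strains under all 5 scalings, with -0.81 and -0.48 after spike-in scaling. The lectins moved less. Mbl1, mannose-binding lectin A, stood at 4.76, 4.71, 4.88 and 4.62 on deficient arrays, against 5.86, 5.75, 5.93 and 5.83 on control arrays in WSB/EiJ (-1.10 ± 0.23), at 4.61, 4.70, 5.02 and 5.48 on deficient arrays, against 5.48, 4.25, 5.59 and 5.75 on control arrays in C3H/HeJ (-0.32 ± 0.23, adjusted p = 0.254) and at 5.30, 5.24, 5.33 and 5.41 on deficient arrays, against 5.42, 5.41, 5.59 and 5.39 on control arrays in A/J. C3H/HeJ control 2 lay below all 4 deficient arrays of its strain. Mbl2, mannose-binding lectin C, stood at 7.88, 8.07, 8.21 and 7.71 on deficient arrays, against 9.05, 8.80, 9.15 and 8.58 on control arrays in WSB/EiJ (-0.93 ± 0.16) and at 8.47, 8.55, 8.47 and 8.69 on deficient arrays, against 8.94, 8.89, 8.95 and 8.59 on control arrays in A/J. In C3H/HeJ it stood at 7.95, 7.95, 8.52 and 8.63 on deficient arrays, against 8.77, 8.67 and 8.67 on control arrays 1, 3 and 4, and the fit left out control 2, whose spot had an outlier flag (-0.44 ± 0.17). Spike-in scaling turned Mbl2 positive in both strains (0.075 in WSB/EiJ and 0.048 in C3H/HeJ).

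C2, C4b and Cfb lie on chromosome 17 between 34865328 and 34999634. C2, the protease part of the classical C3 convertase, stood at 6.11, 6.19, 6.25 and 6.08 on deficient arrays, against 7.24, 7.54, 7.42 and 7.54 on control arrays in WSB/EiJ (-1.28 ± 0.11), at 6.53, 6.44, 6.71 and 6.78 on deficient arrays, against 7.06, 7.67, 7.39 and 7.43 on control arrays in C3H/HeJ (-0.77 ± 0.11) and at 6.58, 6.49, 6.54 and 6.53 on deficient arrays, against 6.67, 6.89, 6.72 and 6.61 on control arrays in A/J. C4b, the component that anchors this convertase, stood at 8.31, 8.39, 8.63 and 8.40 on deficient arrays, against 9.30, 9.38, 9.28 and 9.39 on control arrays in WSB/EiJ (-0.91 ± 0.18, 0.23 with quantile normalization), at 6.66, 6.69, 7.17 and 7.39 on deficient arrays, against 7.71, 6.87, 7.56 and 7.95 on control arrays in C3H/HeJ (-0.55 ± 0.18) and at 8.77, 8.88, 8.73 and 9.18 on deficient arrays, against 9.22, 9.20, 9.19 and 9.12 on control arrays in A/J. The groups did not overlap in any strain for C2, and in WSB/EiJ only for C4b. The probe of C4b also matches the transcript of its near copy C4a, so their signals cannot be told apart. C3, the component on which the pathways meet, stood at 9.71, 9.79, 9.99 and 9.82 on deficient arrays, against 10.66, 10.67, 10.80 and 10.75 on control arrays in WSB/EiJ, 1.86-fold lower (-0.90 ± 0.11) but higher with quantile normalization (0.23). It stood at 9.95, 9.90, 10.29 and 10.33 on deficient arrays, against 10.45, 10.52, 10.32 and 10.75 on control arrays in C3H/HeJ (-0.39 ± 0.11, 0.15 with quantile normalization) and at 10.11, 10.23, 10.12 and 10.49 on deficient arrays, against 10.71, 10.57, 10.59 and 10.44 on control arrays in A/J. Cfb, factor B of the alternative pathway, was lower by -0.73 ± 0.10 in WSB/EiJ, -0.37 ± 0.10 in C3H/HeJ and -0.32 ± 0.10 in A/J with the 75th percentile alone or with median centring as well, and positive with spike-in scaling in each strain (0.28, 0.11 and 0.037). Cfi, factor I, which inactivates C3b and C4b, changed by -0.95 ± 0.15 in WSB/EiJ (0.054 with spike-in scaling) and -0.66 ± 0.15 in C3H/HeJ.

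The terminal complex, which forms the membrane pore, held the largest fall in WSB/EiJ and C3H/HeJ, that of C8b. All 6 of its genes fell in WSB/EiJ and C3H/HeJ and 3 in A/J, against 50.1%, 30.8% and 4.71% of all genes in these strains. Under all 5 scalings C8a, C8b, C8g and C9 were called lower in WSB/EiJ, C8a, C8b, C9 and Hc in C3H/HeJ, and C9 and Hc in A/J. C8b (chromosome 4, 104477094 to 104477153), the beta chain of C8, stood at 4.27, 4.92, 5.07 and 4.76 on deficient arrays, against 7.49, 7.70, 7.70 and 7.47 on control arrays in WSB/EiJ, 7.13-fold lower (-2.83 ± 0.24, adjusted p = 4.1e-09). It stood at 5.04, 5.18, 5.32 and 6.63 on deficient arrays, against 7.16, 7.37, 7.18 and 7.41 on control arrays in C3H/HeJ, 3.33-fold lower (-1.74 ± 0.24), and at 5.96, 5.66, 5.80 and 5.88 on deficient arrays, against 6.27, 6.70, 6.42 and 6.44 on control arrays in A/J (-0.63 ± 0.24, adjusted p = 0.0972). The groups did not overlap in any strain, and C3H/HeJ deficient 4 was nearest to its controls. C8a, the alpha chain, 11.3 kb away on the same chromosome, changed by -1.38 ± 0.18, -1.09 ± 0.18 and -0.55 ± 0.18 in WSB/EiJ, C3H/HeJ and A/J. C8g, the gamma chain, changed by -1.46 ± 0.17 in WSB/EiJ and -0.60 ± 0.17 in C3H/HeJ. A second probe of C8a was not called in A/J (-0.21 ± 0.18). C9 (chromosome 15, 6433127 to 6433186), which polymerises into the pore, stood at 1.95, 2.56, 2.43 and 2.55 on deficient arrays, against 4.26, 4.51, 4.23 and 4.45 on control arrays in WSB/EiJ, 3.98-fold lower (-1.99 ± 0.18). It stood at 3.23, 3.31, 3.42 and 4.34 on deficient arrays, against 4.99, 4.94, 4.80 and 5.13 on control arrays in C3H/HeJ (-1.39 ± 0.18) and at 2.48, 2.63, 2.41 and 2.37 on deficient arrays, against 3.22, 3.31, 3.45 and 3.23 on control arrays in A/J (-0.83 ± 0.18), with no overlap in any strain. Hc (chromosome 2, 34838899 to 34838958), complement C5, which starts the pore, stood at 7.79, 7.97, 8.15 and 7.91 on deficient arrays, against 9.17, 9.26, 9.16 and 9.29 on control arrays in WSB/EiJ (-1.27 ± 0.14), at 7.72, 7.63, 8.07 and 8.37 on deficient arrays, against 8.69, 9.02, 8.65 and 8.97 on control arrays in C3H/HeJ (-0.88 ± 0.14) and at 5.76, 5.64, 5.39 and 5.85 on deficient arrays, against 6.35, 6.48, 6.36 and 6.73 on control arrays in A/J (-0.82 ± 0.14). Hc was called in WSB/EiJ under 2 of the 5 scalings, with -0.22, -0.27 and -0.197 after quantile normalization, spike-in scaling and normexp with quantile normalization. C8g was called in C3H/HeJ under 3. C6, which binds C5b, stood at 3.36, 4.25, 4.46 and 4.13 on deficient arrays, against 5.41, 5.64, 5.57 and 5.81 on control arrays in WSB/EiJ (-1.55 ± 0.33), at 3.40, 3.54, 2.80 and 3.45 on deficient arrays, against 4.19, 4.995, 3.89 and 4.37 on control arrays in C3H/HeJ (-1.06 ± 0.33) and at 2.92, 1.95, 2.55 and 0.95 on deficient arrays, against 2.496, 3.21, 2.95 and 2.85 on control arrays in A/J (-0.78 ± 0.33, adjusted p = 0.13). A/J deficient 1 and 3 lay among the control arrays for C6, and deficient 4 was the lowest of the 24 arrays.

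C1q moved the other way. C1qa (chromosome 4, 136452409 to 136452468), the A chain, stood at 4.04, 3.96, 3.71 and 3.72 on deficient arrays, against 0.87, 0.51, 0.71 and 0.87 on control arrays in WSB/EiJ, 8.7-fold higher (3.12 ± 0.25, adjusted p = 1.8e-09). It stood at 4.25, 4.19, 3.24 and 2.97 on deficient arrays, against 2.05, 2.33, 2.56 and 2.07 on control arrays in C3H/HeJ, 2.66-fold higher (1.41 ± 0.25, adjusted p = 0.00017), and at 3.69, 3.17, 3.63 and 3.26 on deficient arrays, against 2.91, 3.14, 2.18 and 3.03 on control arrays in A/J (0.62 ± 0.25, adjusted p = 0.111). The A/J groups did not overlap, yet the difference was not called. C1qb (chromosome 4, 136436578 to 136436637), the B chain, stood at 2.92, 2.79, 2.48 and 2.58 on deficient arrays, against -0.09, -0.51, -0.28 and -0.22 on control arrays in WSB/EiJ (2.97 ± 0.25), at 2.66, 2.53, 1.79 and 1.64 on deficient arrays, against 0.68, 0.27, 1.23 and 0.69 on control arrays in C3H/HeJ (1.44 ± 0.25) and at 2.24, 1.68, 2.37 and 1.81 on deficient arrays, against 1.30, 1.76, 0.84 and 1.78 on control arrays in A/J (0.61 ± 0.25, adjusted p = 0.122). C1qc (chromosome 4, 136445766 to 136445825), the C chain, stood at 3.93, 4.03, 3.69 and 3.68 on deficient arrays, against 1.31, 0.92, 0.98 and 1.22 on control arrays in WSB/EiJ (2.73 ± 0.25), at 4.22, 4.12, 3.33 and 3.23 on deficient arrays, against 2.30, 1.83, 2.78 and 2.20 on control arrays in C3H/HeJ (1.45 ± 0.25) and at 3.95, 3.46, 4.00 and 3.52 on deficient arrays, against 3.18, 3.58, 2.503 and 3.46 on control arrays in A/J (0.55 ± 0.25, adjusted p = 0.16). A/J control 3 was the lowest array of its strain for all 3 chains, and C3H/HeJ deficient 1 and 2 stood above deficient 3 and 4. Both deficient 3 and 4 lay on slide 1, deficient 1 on slide 2 and deficient 2 on slide 3. On slide 1, A/J deficient 3 and WSB/EiJ deficient 1 had the highest C1q mean of their groups (3.33 and 3.63). With spike-in scaling all 3 chains were called higher in A/J too (0.98, 0.96 and 0.91 for C1qa, C1qb and C1qc).

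Markers of several cell types changed on the deficient diet, those of macrophages in the direction of C1q and those of hepatocytes in that of the other factors. Of all genes tested, 23.6% rose and 50.1% fell in WSB/EiJ, 17.3% and 30.8% in C3H/HeJ and 5.74% and 4.71% in A/J. With spike-in scaling 7.67%, 4.54% and 1.24% of all genes fell in the same order. Of 25 macrophage and Kupffer cell markers tested, 20 rose and 0 fell in WSB/EiJ (median 3.06, against 2.97 for C1q), 18 and 0 in C3H/HeJ (1.35, against 1.44) and 7 and 1 in A/J (0.67, against 0.61). Their summed level, in multiples of the array's 75th percentile, was 432 to 493 on deficient arrays of WSB/EiJ, against 88.0 to 99.5 on control arrays. It was 244 to 457 against 129 to 198 in C3H/HeJ and 335 to 429 against 232.4 to 435.5 in A/J. Cd163 was the marker on the array that did not pass the filter. Of 23 hepatocyte markers, 23 fell in WSB/EiJ (median -1.20), 17 in C3H/HeJ (-0.57) and 6 in A/J (-0.36), and 8, 6 and 4 with spike-in scaling. Of 12 stellate cell and fibroblast markers, 10 rose and 0 fell in WSB/EiJ (median 1.62), 8 and 0 in C3H/HeJ (1.33) and 3 and 1 in A/J (0.74). Their summed level was 245.1 to 365.9 on deficient arrays, against 79.35 to 101 on control arrays in WSB/EiJ, 98.62 to 224.5 against 63.78 to 99.55 in C3H/HeJ and 99.78 to 142.7 against 79.28 to 138.3 in A/J. Of 7 biliary markers, 6 rose in WSB/EiJ (median 1.54), 2 in C3H/HeJ and 0 in A/J, and 0 fell. Of 4 erythroid markers, 4 fell in WSB/EiJ (median -0.93), 4 in C3H/HeJ (-0.87) and 2 in A/J (-0.77), and 0 fell in any strain with spike-in scaling. The part of cell content in the changes of the 38 genes was not tested.

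**Figure D4:**
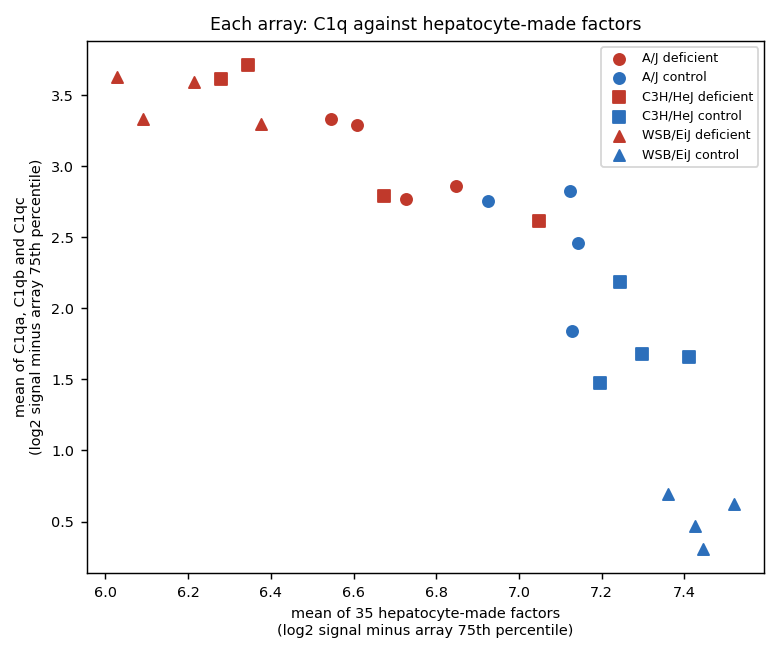
Mean log2 level of the 3 C1q genes (vertical) against the mean of the 35 hepatocyte-made factors (horizontal) on each of the 24 arrays, by strain (shape) and diet (red deficient, blue control). On C3H/HeJ control 2 the horizontal mean leaves out Mbl2. Deficient arrays of WSB/EiJ lie at 6.03 to 6.38 and 3.30 to 3.63, its control arrays at 7.36 to 7.52 and 0.31 to 0.70.

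The difference between the C1q mean and the hepatocyte-made mean within an array is free of any scaling by a constant. Deficient arrays had this difference higher than control arrays by 4.20 on the log2 scale in WSB/EiJ, 2.13 in C3H/HeJ and 0.99 in A/J. It lay between -3.08 and -2.40 on deficient arrays of WSB/EiJ, against -7.14 to -6.66 on its control arrays. In C3H/HeJ it was -4.43 to -2.63 against -5.76 to -5.06, and in A/J -3.99 to -3.22 against -5.29 to -4.17. The groups did not overlap in any strain, and the group means were -2.72, -3.41 and -3.62 on deficient arrays of WSB/EiJ, C3H/HeJ and A/J, against -6.92, -5.54 and -4.61 on their control arrays.

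The diet effect itself was compared between strains. WSB/EiJ differed from A/J for 32 of the 38 genes, 29 more negative and 3 more positive, where 33.9% and 16.6% of all genes were called (50.5% in either direction). With quantile normalization the split was 9 more negative and 5 more positive, where 19.7% and 21% of all genes were called. The largest differences were -2.20 ± 0.34 for C8b, -1.56 ± 0.26 for Klkb1 and -1.45 ± 0.27 for Masp1 in the negative direction, and 2.497 ± 0.35 for C1qa, 2.36 ± 0.35 for C1qb and 2.18 ± 0.35 for C1qc in the positive one. The difference of Masp1 rests on its brightest probe. Its other probes changed by -0.80 and 0.70 in WSB/EiJ, against -0.36 and 0.61 in A/J, and were not tested for a strain difference. WSB/EiJ differed from C3H/HeJ for 16 genes, 13 more negative and 3 more positive, against 16.8% and 9.23% of all genes (26% in either direction), and 4 and 5 with quantile normalization, against 9.25% and 11.4%. These included Masp1 (-1.13 ± 0.27), C8b (-1.10 ± 0.34), Klkb1 (-1.05 ± 0.26), C1qa (1.71 ± 0.35), C1qb (1.53 ± 0.35) and C1qc (1.28 ± 0.35). Without WSB/EiJ deficient 1 the difference of C8b was -0.93 (adjusted p = 0.0541). C3H/HeJ differed from A/J for 1 of the 38 genes, C2 (-0.59 ± 0.16, adjusted p = 0.0406), which was more negative in C3H/HeJ, where 1.49% of all genes were called more negative, 2.08% more positive and 3.57% in either direction. The differences of C8b (-1.11 ± 0.34, adjusted p = 0.0742) and of C1qa, C1qb and C1qc (0.79 ± 0.35, 0.83 ± 0.35 and 0.90 ± 0.35) did not pass there. The call of C2 ended with 12 of the 16 arrays of these groups left out in turn, with adjusted p between 0.0552 and 0.1, and 9 genes were called without C3H/HeJ deficient 4. The comparisons share their groups, so they are not independent of each other.

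The smaller counts rested on single arrays. In A/J 3 genes were called without deficient 3, 4 without deficient 1 and 13 without deficient 4. F7, C9 and Hc were called there with any array left out. C8a lost the call without any single control array and without deficient 1, 3 or 4 (adjusted p of limma 0.0633 to 0.137). Cfb lost it without control 1, 2 or 3 and without deficient 1, 2 or 3 (0.0558 to 0.167). Fga lost it without deficient 1 or 3, and Serpinf2 without deficient 3. In C3H/HeJ between 30 and 36 genes were called with 1 array left out, and the genes that lost their call with some array were C4b, F13b, Mbl2, Plg and Serpind1. Control 2 and deficient 4 of C3H/HeJ stood apart for several genes (Mbl1, F5, Serpind1, C8a and C9 among them), and 37 genes were called without both. All 38 were called in WSB/EiJ with any array left out. Every group was spread over the 3 slides of 8 arrays. Within slides 1, 2 and 3 the median difference of the hepatocyte-made factors was -1.29, -0.93 and -1.10 in WSB/EiJ, -0.47, -0.85 and -0.995 in C3H/HeJ and -0.596, -0.26 and -0.39 in A/J. That of C1q was 3.17, 2.99 and 2.77 in WSB/EiJ, 1.04, 1.71 and 2.26 in C3H/HeJ and 0.82, 0.99 and 0.47 in A/J.

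On the control diet the strains differed in the level of several complement genes. WSB/EiJ differed from A/J for 17 of the 38 genes, 10 higher and 7 lower, against 26.4% and 18.6% of all genes (45.1% in either direction). C3H/HeJ differed from A/J for 11, 8 higher and 3 lower, against 14% and 10.5% (24.5%), and WSB/EiJ from C3H/HeJ for 14, 6 higher and 8 lower, against 21.7% and 18.8% (40.5%). With quantile normalization WSB/EiJ had 9 genes higher and 16 lower than A/J, and 3 higher and 13 lower than C3H/HeJ, against 20.8% and 22.5%, and 20.1% and 21.7%, of all genes. A strain difference of 1 probe is a difference in signal, since a sequence variant under the probe can change binding, and this was not tested.

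Hc had control means of 9.22 ± 0.07 in WSB/EiJ and 8.83 ± 0.19 in C3H/HeJ, against 6.48 ± 0.18 in A/J (SD, n = 4 each), a difference to A/J of 2.74 ± 0.14 and 2.35 ± 0.14. A/J mice are known to carry an allele of Hc that leaves them without C5. C6 followed the same order at 5.61 ± 0.17, 4.36 ± 0.47 and 2.88 ± 0.30, and all 3 pairs were called. C9 was highest in C3H/HeJ at 4.96 ± 0.14, against 4.36 ± 0.14 in WSB/EiJ and 3.30 ± 0.11 in A/J, again with all pairs called. C4b was 9.34 ± 0.06 in WSB/EiJ, 7.52 ± 0.46 in C3H/HeJ and 9.18 ± 0.04 in A/J, so that C3H/HeJ lay below WSB/EiJ by 3.51-fold and below A/J by 3.16-fold. Low plasma C4 is a known trait of strains with the H2-k haplotype, which C3H/HeJ carries. F12 was higher in WSB/EiJ (7.39 ± 0.14) than in C3H/HeJ (6.10 ± 0.20) and A/J (5.97 ± 0.15), by 1.29 ± 0.13 and 1.42 ± 0.13. F11 was 4.38 ± 0.09 in WSB/EiJ, 5.86 ± 0.06 in C3H/HeJ and 4.99 ± 0.29 in A/J, with all pairs called. Fgb was lower in WSB/EiJ than in the other strains (-0.67 ± 0.16 to C3H/HeJ and -0.79 ± 0.16 to A/J).

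**Figure D5:**
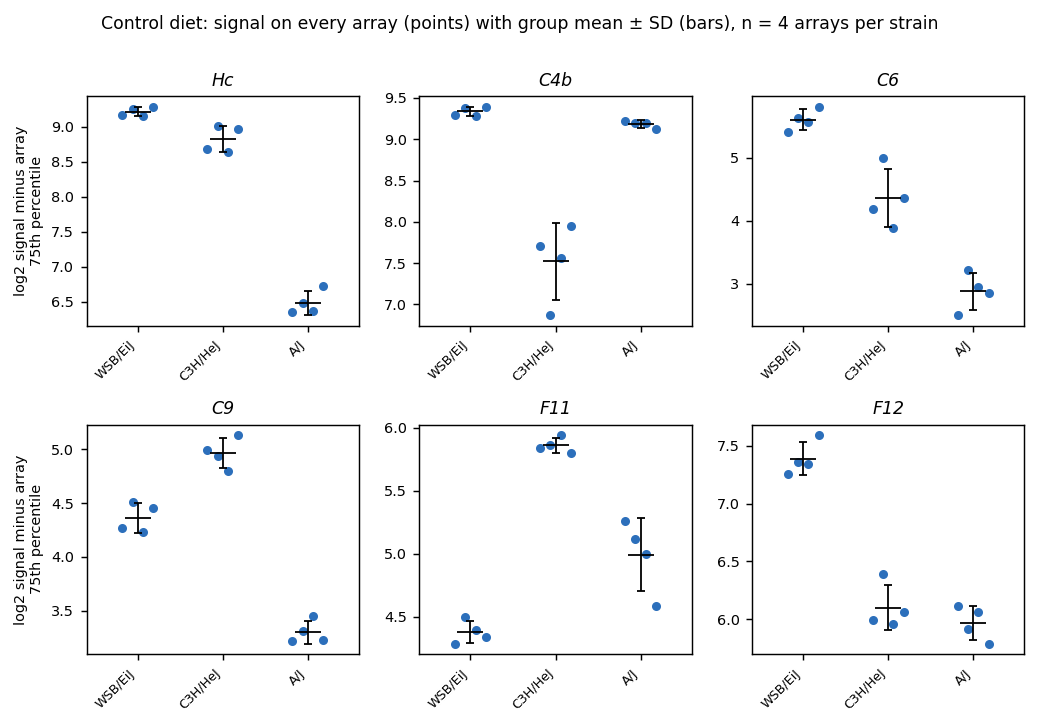
Log2 level of 6 genes on the 4 control-diet arrays of each strain (points) with mean and SD (bars). Hc and C6 are lowest in A/J, C4b is lowest in C3H/HeJ, and F12 is highest in WSB/EiJ.

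C1q was lowest in WSB/EiJ on the control diet. C1qa averaged 0.74 ± 0.17 there, 2.25 ± 0.24 in C3H/HeJ and 2.81 ± 0.43 in A/J (SD, n = 4 each), which is a difference of -1.51 ± 0.25 to C3H/HeJ and -2.07 ± 0.25 to A/J. C1qb differed by -0.99 ± 0.25 and -1.69 ± 0.25 and C1qc by -1.17 ± 0.25 and -2.08 ± 0.25, all called. Between C3H/HeJ and A/J, C1qc (-0.90 ± 0.25) and C1qb (-0.70 ± 0.25) were called lower and C1qa (-0.56 ± 0.25) was not. The call of C1qb ended with several single arrays left out (adjusted p up to 0.147). Low control levels in WSB/EiJ were not particular to C1q. Of 25 macrophage and Kupffer cell markers, 21 were lower and 0 higher there than in A/J (median -1.75). Compared with C3H/HeJ, 15 were lower and 1 higher (median -1.04). The shares of all genes that were lower were 18.6% and 18.8%. On the deficient diet the strain means of C1qa lay closer together, at 3.86 ± 0.17 in WSB/EiJ, 3.66 ± 0.65 in C3H/HeJ and 3.44 ± 0.26 in A/J.

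Genes of the same pathways outside the 38 were read from a list of each pathway. Of 28 other coagulation and fibrinolysis genes tested, 13 rose and 13 fell in WSB/EiJ, 11 and 10 in C3H/HeJ and 3 and 2 in A/J. Of all genes tested, 23.6% rose and 50.1% fell in WSB/EiJ, 17.3% and 30.8% in C3H/HeJ and 5.74% and 4.71% in A/J. With spike-in scaling the counts were 19 and 5, 15 and 3, and 5 and 0. Under it 66.8% of all genes rose and 7.67% fell in WSB/EiJ, 39.3% and 4.54% in C3H/HeJ and 22.3% and 1.24% in A/J. In WSB/EiJ Plaur, the urokinase receptor, rose 30.7-fold and Anxa2, annexin A2, a surface protein that binds plasminogen activator, 18.6-fold, while Serpine2, protease nexin 1, fell 9.59-fold and Vkorc1, the reductase that recycles vitamin K, 2.39-fold. In C3H/HeJ Anxa2 rose 14.7-fold. Plat, the tissue plasminogen activator, also rose in C3H/HeJ but was not well above background on any control array. Its measured difference ran between 0.96 and 4.66 over the 5 scalings. Serpine2 (2 of 4 deficient arrays well above background) and Cpb2, a carboxypeptidase that slows fibrinolysis, changed there by -2.11 ± 0.31 and -0.996 ± 0.16. In A/J Plaur (3 of 4 control arrays above background) rose 3.76-fold, and Ggcx, the carboxylase of the vitamin K-dependent factors, changed by -0.61 ± 0.13 and Cpb2 by -0.59 ± 0.16. Over the 5 scalings the log2 difference of Plaur ran between 3.238 and 5.945 in WSB/EiJ and between 0.86 and 2.27 in A/J. In WSB/EiJ that of Anxa2 ran between 4.22 and 5.22, Serpine2 between -3.26 and -1.88 and Vkorc1 between -1.25 and -0.25. None of these named changes turned sign under the 5 scalings.

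Of 28 other complement genes tested, 4 rose and 15 fell in WSB/EiJ, 6 and 11 in C3H/HeJ and 1 and 2 in A/J, and 12 and 2, 9 and 2, and 6 and 0 with spike-in scaling. The shares of all genes were 23.6% and 50.1%, 17.3% and 30.8%, and 5.74% and 4.71%. With spike-in scaling they were 66.8% and 7.67%, 39.3% and 4.54%, and 22.3% and 1.24%. Itgb2 and Itgax, the chains of the complement receptor CR4, were the risers with the lowest adjusted p. Itgb2 rose 16.8-fold in WSB/EiJ and 3.89-fold in C3H/HeJ. Its log2 difference over the 5 scalings ran between 3.11 and 5.08 in WSB/EiJ and between 1.47 and 2.445 in C3H/HeJ. Itgax rose in WSB/EiJ, where no control array was well above background and the measured difference ran between 4.11 and 8.10 over the 5 scalings. In C3H/HeJ only 1 of 4 control arrays was above background and the measured difference ran between 2.53 and 5.70. In A/J, with 3 of 4 control arrays above background, it ran between 1.81 and 3.995. Among those that fell were C1ra (-0.96 ± 0.09, 0.05 with spike-in scaling) in WSB/EiJ, Cfhr2 (-0.92 ± 0.15) and C1rb (-0.64 ± 0.11) in C3H/HeJ, and Cfhr2 (-0.55 ± 0.15) in A/J. C1ra and C1rb are close copies that a probe may not separate.

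Of 15 transcription factors of hepatocytes, 1 rose and 12 fell in WSB/EiJ, 0 and 4 in C3H/HeJ and 0 and 2 in A/J, and 3 and 2, 1 and 1, and 1 and 0 with spike-in scaling. The shares of all genes were 23.6% and 50.1%, 17.3% and 30.8%, and 5.74% and 4.71%. With spike-in scaling they were 66.8% and 7.67%, 39.3% and 4.54%, and 22.3% and 1.24%. In WSB/EiJ Hnf4a (-1.32 ± 0.16), whose motif was searched above, fell and Cebpd rose (0.95 ± 0.25). In C3H/HeJ Foxa3 (-1.10 ± 0.18) and Stat3 (-0.59 ± 0.17) fell, and in A/J Stat3 (-0.63 ± 0.17).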

How the data were processed

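The 24 arrays were single-colour Agilent arrays of Cy3-labelled liver RNA, with scanner output made by Agilent Feature Extraction 10.7 per the file headers. The deposited intensity used here is the processed signal, which the authors' scanner software had already background-corrected. The deposited normalized table differs from it by a constant per array and was used as an alternative. Control spots and outlier-flagged spots were left out, log2 of the signal was taken, and each array's 75th percentile was subtracted. Of 55681 probes, 32737 had a gene name, matched by RefSeq accession, symbol or synonym, or for 1517 taken from the scanner files. Probes entered the test when all 4 arrays of any group read them well above background, and the brightest of a gene's probes stood for it, leaving 15513 genes. limma 3.58.1 in R 4.3.3 fitted the 6 group means, with Benjamini-Hochberg adjustment over all genes at 0.05, and the fit was tested on simulated data. Probe positions are on NCBI37 (mm9) as the files give them, and the exon or untranslated region was not assigned. Promoters are RefSeq's on GRCm38.p6, and the builds were not combined.

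All 38 members are named, in the order of their roles. Values on every array are given for C1qa, C1qb, C1qc, F7, Proc, Fgb, F2, C3, Hc, C4b, Mbl1, Mbl2, C9 and F11 and for the 3 largest called rises and falls of each comparison. From each pathway list, up to 2 rises and 2 falls per strain with the lowest adjusted p are named, of which some genes are not reported here. Further values were chosen after they were seen. Protein sequences were not used here. The members and lists were chosen with earlier results of these data known. Replicate numbers did not pair the arrays, since deviations of same-numbered arrays correlated at -0.35 to 0.06. The alternatives covered scaling, background correction, filters, probes per gene, slide and replicate blocks, array weights, thresholds and leaving out arrays. The setting without C3H/HeJ control 2 and deficient 4 was added after seeing the data. The number of arrays limits the precision.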

Additional observations from a re-analysis of the deposited data

Results flagged for a closer look

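Within groups of 4 arrays, 13 of 227 combinations of gene and group (5.73%) had an array whose gap to the others passed Dixon's 95% critical value, and chance gives about 1 in 20. On the deficient diet, C8a (6.98) and C9 (4.34) stood high on C3H/HeJ deficient 4, and Pros1 stood at 2.20 on A/J deficient 4. On the control diet of A/J, control 4 stood apart for F13b (4.76), Cfb (8.84) and C8g (7.86), control 1 for Kng1 (10.40) and control 3 for Mbl1 (5.59). In C3H/HeJ, control 2 stood apart for Serpind1 (7.48) and control 4 for Fgb (10.79). In WSB/EiJ, control 4 stood apart for Fga (8.24) and F13b (4.67) and control 1 for Masp2 (5.49).

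The diet effect differed between strains, by limma's test of the difference, for 32 of the 38 genes between WSB/EiJ and A/J. It did so for 16 between WSB/EiJ and C3H/HeJ and for 1 between C3H/HeJ and A/J. The shares of all genes called in these comparisons were 50.5%, 26% and 3.57%. Between WSB/EiJ and A/J the differences of log2 fold change were -2.20 for C8b, -1.56 for Klkb1, -1.45 for Masp1, 2.497 for C1qa, 2.36 for C1qb and 2.18 for C1qc. Between WSB/EiJ and C3H/HeJ they were -1.13 for Masp1, -1.10 for C8b, -1.05 for Klkb1, 1.71 for C1qa, 1.53 for C1qb and 1.28 for C1qc. Between C3H/HeJ and A/J the difference of C2 was -0.59.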

How the results depend on the processing

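Counts of the 38 genes called are given here where they moved by more than 1.5 times. The number of all genes called moved as well. For the diet effect in A/J it was 1622, and 1270 with median centring. In C3H/HeJ it was 7460, against 6472 with quantile normalization, 6798 with spike-in scaling and 6101 with normexp and quantile normalization. In WSB/EiJ these numbers were 11441, 10098, 11548 and 9665. For the diet effect in A/J (7 called), median centring gave 4, array weights 26, an adjusted p of 0.01 gave 3, a log2 change of at least 1 gave 0, leaving out control 4 and deficient 4 gave 16, and leaving out 1 array gave 3 to 13. In C3H/HeJ (35) quantile normalization gave 22, spike-in scaling 15, normexp with quantile normalization 20, a fit of the compared groups only 23, a log2 change of at least 1 gave 11, and leaving out 1 array 30 to 36. In WSB/EiJ (38) quantile normalization gave 23, spike-in scaling 16, normexp with quantile normalization 22, and leaving out 1 array 38. For the difference C3H/HeJ minus A/J (1) quantile normalization, median centring, spike-in scaling, no background filter, the compared groups only, the stricter p of 0.01, the fold limit, leaving out A/J control 4 and deficient 4, and including unnamed probes each gave 0, array weights gave 6, leaving out C3H/HeJ control 2 and deficient 4 gave 8, and leaving out 1 array 0 to 9. For WSB/EiJ minus A/J (32) quantile normalization and normexp with it each gave 14, spike-in scaling 11, a log2 change of at least 1 gave 14, and leaving out 1 array 27 to 36. For WSB/EiJ minus C3H/HeJ (16) quantile normalization gave 9, median centring 8, spike-in scaling 7, normexp with quantile normalization, the stricter p and the fold limit each gave 6, and leaving out 1 array 11 to 23. On the control diet, C3H/HeJ minus A/J (11) gave 7 at an adjusted p of 0.01, 4 at a log2 change of at least 1 and 9 to 12 without 1 array. WSB/EiJ minus A/J (17) gave 8 at a log2 change of at least 1 and 15 to 17 without 1 array, and WSB/EiJ minus C3H/HeJ (14) gave 23 with array weights, 6 at a log2 change of at least 1 and 11 to 14 without 1 array. With the replicate block the counts were 8, 35, 38, 1, 34, 16, 11, 17 and 13 in this order of comparisons, and the numbers do not pair the arrays. Of all genes, 554 were called for C3H/HeJ minus A/J, with 554, 384 and 218 under quantile normalization, median centring and spike-in scaling. For WSB/EiJ minus A/J 7827 were called, with 6319, 6214 and 5961 under quantile normalization, spike-in scaling and normexp with quantile normalization. For WSB/EiJ minus C3H/HeJ these numbers were 4035, 3211, 3727 and 3394, and 2590 with median centring. All-gene numbers for settings other than scaling are not given here. The cause of these moves was not tested.

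With spike-in scaling 19 of the 35 hepatocyte-made factors stood above 0 in A/J, 10 in C3H/HeJ and 12 in WSB/EiJ, where the 75th percentile had 1, 1 and 0. Among the values given in the text it turned the log2 fold change positive for Cfb (0.037) in A/J, for F12 (0.033), F13b (0.113), Serpind1 (0.015), Proc (0.221), Pros1 (0.013), C3 (0.094), Cfb (0.113), Mbl1 (0.168) and Mbl2 (0.048) in C3H/HeJ, and for F5 (0.166), F9 (0.073), F10 (0.024), F11 (0.235), F12 (0.153), Serpind1 (0.025), Pros1 (0.470), C3 (0.107), C4b (0.097), Cfb (0.275), Cfi (0.054) and Mbl2 (0.075) in WSB/EiJ. Quantile normalization did so for F2 (0.033), Serpinc1 (0.001), Proc (0.135), Kng1 (0.014), C3 (0.147) and Cfb (0.066) in C3H/HeJ, and for F2 (0.031), Kng1 (0.057), C3 (0.228), C4b (0.228), Cfb (0.392), Cfi (0.032) and Mbl2 (0.090) in WSB/EiJ. Normexp with quantile normalization did so for F12 (0.034), Proc (0.244), Kng1 (0.164), C3 (0.134), Cfb (0.072) and Mbl1 (0.035) in C3H/HeJ, and for F2 (0.086), Serpinc1 (0.019), Kng1 (0.042), C3 (0.209), C4b (0.244), Cfb (0.351), Cfi (0.021) and Mbl2 (0.144) in WSB/EiJ. F5 in C3H/HeJ (0.09), called higher under 3 of the scalings (0.40 to 0.58), turned negative with array weights (-0.22), without control 2 and deficient 4 together (-0.24), without control 2 (-0.102) and without deficient 4 (-0.045), and ran between -0.102 and 0.202 with 1 array left out.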
